A study of Mus musculus with 2 samples.

Results

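The 10 genes described here belong to the response of cells to tumor necrosis factor (TNF) and to the transcription factor NF-kB: the ligand gene Tnf, the NF-kB subunit gene Nfkb1, the inhibitor and regulator genes Nfkbia, Nfkbiz and Tnfaip3, the feedback genes Zfp36, Dusp1 and Socs3, and the targets Icam1 and Tnfaip2. They were chosen by symbol among the 28692 genes listed in the count files, and all 10 were listed once. Their levels were read in GR-1+ cells, the cells that carry the Ly6C or Ly6G surface proteins, of tumors that grew in the mammary fat pad of female BALB/c mice of 8 to 10 weeks after injection of 4T1 cells, a triple-negative mammary carcinoma line. Tumors of the parental line, 4T1p, resist anti-PD1, and tumors of 4T1m, polyclonal cells made from it by exposure to the mutagen MNNG, respond. All mice in these libraries received anti-PD1 for 2 weeks, and each tumor type gave 1 library of cells taken from digested tumors by magnetic selection. With 1 library per tumor type no difference was tested, no p-value is given, and every 95% interval covers counting error only. RNA molecules were counted by unique molecular identifiers (UMIs), with a median of 2066 per barcode in the library labelled 4T1p and of 2763 in that labelled 4T1m. Each of these medians is the one that the study states for the other tumor type. All directions between libraries therefore rest on the deposited labels, and the names 4T1p and 4T1m stand here for the libraries so labelled.

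NF-kB is held in the cytoplasm by inhibitor proteins of the IkB family until signals such as TNF, interleukin-1 or bacterial products lead to their degradation. The factor then enters the nucleus and activates inflammatory genes together with genes that end the response, so that part of its targets are its own inhibitors. In macrophages and neutrophils the response is fast, and the RNAs of several of its genes, Tnf and Nfkbia among them, are made and degraded quickly. Levels were measured as counts of RNA 3′ ends and say nothing of protein or of NF-kB activity.

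The promoters of 4 of the genes are shown as examples, with sequence elements found in them. They were taken from RefSeq on GRCm38.p6, which holds 9 promoters for 8 of the 10 genes, each with 250 bases before and 50 after the start of the gene. A kappa B consensus element, the site that NF-kB binds, was searched on both strands and was found in the promoters of Nfkbia, Tnfaip3 and Tnfaip2, and in 8.46% of all 32851 promoters. Nfkbia at chr12:55492598-55492897 and Tnfaip3 at chr10:19015361-19015660, both on the minus strand, hold 1 and 2 matches, set in capitals:
Nfkbia: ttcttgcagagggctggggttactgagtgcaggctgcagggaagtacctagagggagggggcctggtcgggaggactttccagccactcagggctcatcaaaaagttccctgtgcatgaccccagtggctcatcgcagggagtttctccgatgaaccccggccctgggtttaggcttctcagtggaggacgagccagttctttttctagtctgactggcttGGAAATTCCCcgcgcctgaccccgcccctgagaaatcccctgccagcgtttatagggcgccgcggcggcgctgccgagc
Tnfaip3: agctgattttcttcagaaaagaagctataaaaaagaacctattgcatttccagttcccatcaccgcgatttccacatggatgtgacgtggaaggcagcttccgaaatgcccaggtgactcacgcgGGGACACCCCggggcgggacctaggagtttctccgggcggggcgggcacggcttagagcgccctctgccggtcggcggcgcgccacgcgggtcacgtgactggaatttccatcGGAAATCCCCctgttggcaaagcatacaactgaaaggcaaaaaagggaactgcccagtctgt
The other pair are the promoters of Zfp36 at chr7:28379179-28379478 and Dusp1 at chr17:26508423-26508722, both on the minus strand and without a kappa B match. The capitals mark a CArG box, the site of serum response factor, in Zfp36 (1.63% of all promoters) and the cyclic AMP response element TGACGTCA in Dusp1 (1.79%):
Zfp36: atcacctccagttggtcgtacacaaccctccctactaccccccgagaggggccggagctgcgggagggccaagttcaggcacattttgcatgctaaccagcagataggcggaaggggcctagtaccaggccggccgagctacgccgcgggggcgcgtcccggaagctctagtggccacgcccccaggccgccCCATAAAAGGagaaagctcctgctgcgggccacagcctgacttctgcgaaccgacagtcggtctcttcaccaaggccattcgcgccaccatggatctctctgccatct
Dusp1: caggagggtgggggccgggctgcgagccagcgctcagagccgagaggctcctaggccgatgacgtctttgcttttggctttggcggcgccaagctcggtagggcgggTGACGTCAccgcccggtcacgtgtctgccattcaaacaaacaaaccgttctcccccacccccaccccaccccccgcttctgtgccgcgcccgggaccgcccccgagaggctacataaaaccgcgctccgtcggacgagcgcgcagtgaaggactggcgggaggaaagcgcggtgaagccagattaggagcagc
The AP-1 site TGANTCA occurred among these genes in the promoter of Tnfaip3 (7.81% of all promoters) and the STAT site TTCNNNGAA in those of Icam1, Socs3 and Zfp36 (8.30%). No match of these elements overlapped another in these promoters. In the GENCODE vM21 annotation of the same build the genes without a printed promoter lie at chr17:35199381-35202007 (Tnf), chr3:135584655-135691547 (Nfkb1), chr16:55811375-55838899 (Nfkbiz), chr11:117966079-117970047 (Socs3), chr9:21015985-21028817 (Icam1) and chr12:111442469-111455018 (Tnfaip2), the last pair on the plus strand and the others on the minus strand. A match describes the letters of the window and is not evidence of binding.

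After the filters on detected genes, UMIs and mitochondrial share, 3220 of 4390 barcodes remained, 1128 in 4T1p and 2092 in 4T1m, and no barcode was shared by the libraries. The cells were clustered without the 10 genes and without the other genes of the pathway, and clusters are named by their lineage and leading genes. Monocytic-like cells numbered 625 in 4T1p and 700 in 4T1m over 5 clusters, led by Sdc1 and Met (cluster 1), Cxcl9 and Ccl8 (cluster 4), Ifit2 and Ifnb1 (cluster 6), Cd163 and Cbr2 (cluster 7) and the cycling genes Birc5 and Top2a (cluster 8). Granulocytic-like cells numbered 251 and 1022 over 4 clusters, led by Ccdc126 and Tnfrsf23 (cluster 2), Mirt1 and Hdc (cluster 3), Slc2a3 and Cxcr2 (cluster 5) and Camp and Ltf (cluster 9). The lineages were told apart by their markers: S100a8 stood at 68461 and 68818 CPM (counts per 1000000 UMIs of the cell group) in granulocytic-like cells of 4T1p and 4T1m and at 352 and 465 in monocytic-like cells. A cluster of 244 and 313 shallow barcodes, led by Fabp5, was left unnamed, and 34 B cell-like and 31 T cell-like cells were also found.

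The libraries differed in the make-up of both lineages and in the depth of the monocytic-like cells. Cluster 4 held 256 of the 625 monocytic-like cells of 4T1p and 84 of 700 in 4T1m, whereas cluster 1 held 98 and 297. Among granulocytic-like cells, cluster 3 held 110 of 251 in 4T1p and 277 of 1022 in 4T1m, and cluster 5 held 38 and 274. The median was 2316 UMIs per monocytic-like cell in 4T1p and 9182 in 4T1m, and 48.5% and 77.9% of these cells had a UMI of Ptprc, the leukocyte marker CD45. In granulocytic-like cells the medians were 2717 and 2482 UMIs, and 70.1% and 89.2% had a Ptprc UMI. RNA of red blood cells (3 genes) summed to 8.84 CPM in 4T1p and 1444 CPM in 4T1m in monocytic-like and to 24.3 and 403 in granulocytic-like cells, with Alas2 at 0 in 4T1p, while the 4 epithelial genes summed to between 4.35 and 18.2 CPM in these 4 groups, with Epcam at 0 in granulocytic-like cells of 4T1m. The part of these differences in the results was not tested. Because the clusters of a lineage were mixed differently in the libraries, each ratio is given for the whole lineage and within clusters.

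**Figure D1:**
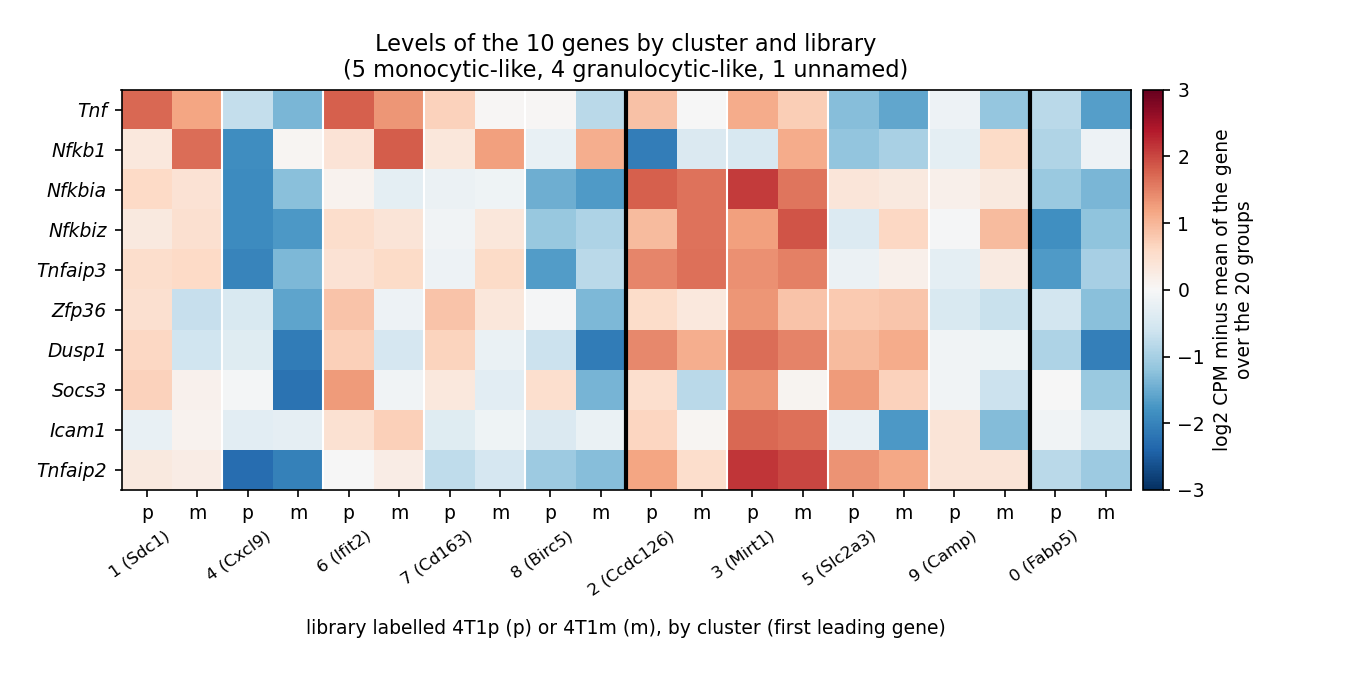
Levels of the 10 genes (rows) in 10 clusters, each split by library (columns, p for 4T1p and m for 4T1m), as log2 CPM minus the mean of the gene over the 20 groups, with black lines between the 5 monocytic-like, 4 granulocytic-like and 1 unnamed clusters. Tnf was highest in clusters 6 and 1 of the monocytic-like cells, whereas Nfkbia, Nfkbiz and Tnfaip3 were highest in the granulocytic-like clusters 2 and 3.

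Tnf, the gene of the ligand itself, took a larger share of the RNA of monocytic-like than of granulocytic-like cells in both libraries and was lower in 4T1m than in 4T1p within each of the 9 clusters of these lineages. In monocytic-like cells it stood at 858 CPM in 4T1p (95% Poisson interval 830 to 886, 3590 UMIs) and at 638 CPM in 4T1m (619 to 658, 4255 UMIs). In granulocytic-like cells it stood at 512 CPM (465 to 564, 422 UMIs) in 4T1p and 285 CPM (266 to 304, 896 UMIs) in 4T1m. Lymphocytes gave the low end, with 1 UMI of Tnf in the 33 B cell-like cells of 4T1m and 10 UMIs in 24 T cell-like cells. The log2 ratio of 4T1m over 4T1p was -0.43 (-0.49 to -0.36) in monocytic-like and -0.85 (-1.02 to -0.68) in granulocytic-like cells.

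Within clusters the log2 ratio of Tnf ran from -1.01 in cluster 9 to -0.28 in cluster 5, with an interval below 0 in 8 of 9 clusters. Of 28466 pairs of a gene and a cluster with at least 50 UMIs, 11.7% had one. In 4T1p the level of Tnf was highest in cluster 6 with its interferon genes (1127 CPM) and in cluster 1 (1082 CPM), whose intervals overlapped, and lowest in cluster 5 (136 CPM). In 4T1m the order again began with cluster 6 (822 CPM), cluster 1 (742 CPM) and cluster 3 (545 CPM), and cluster 5 (112 CPM) and the unnamed cluster 0 (104 CPM) came last. In 4T1p 7 of the 9 pairs of neighbors in this order had overlapping intervals and in 4T1m 5 of 9.

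The direction for all monocytic-like cells depended on how cells were weighted. The ratio of summed UMIs gives deep cells more weight, and the mean over cells of each cell's CPM gave a log2 ratio of 0.21, in the opposite direction, while thinning each cell to 1000 UMIs gave -0.02. With each cluster counted equally the mean was -0.63. After thinning, a Tnf UMI was found in 30.5% (26.3 to 34.9, exact binomial) of 463 monocytic-like cells of 4T1p and in 29.6% (26.1 to 33.3) of 638 in 4T1m. The shallower cells left out numbered 162 and 62 in monocytic-like and 22 and 85 in granulocytic-like cells. Before thinning the shares were 44.6% and 64.1%, at medians of 2316 and 9182 UMIs. In granulocytic-like cells the thinned shares were 24.5% (19.0 to 30.6) of 229 cells and 12.3% (10.2 to 14.6) of 937 cells, with 36.3% and 22.4% before thinning. In B cell-like cells of 4T1m, which should hold little Tnf, the thinned share was 3.03% (1 of 33 cells) at a median of 3772 UMIs. Tnf was unevenly spread among cells: after thinning, the 10% of granulocytic-like cells of 4T1m with most Tnf UMIs held 91.9% of them, and a single cell held up to 15, for a mean of 0.276 UMIs per cell and a variance of 1.45.

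Nfkb1 encodes the p105 precursor of the NF-kB subunit p50, and it had the largest library ratio of the 10 genes in both lineages by summed UMIs. Its level was 144 CPM (133 to 156, 604 UMIs) in 4T1p and 387 CPM (372 to 402, 2578 UMIs) in 4T1m for monocytic-like cells. Granulocytic-like cells held it at 77.7 CPM (59.8 to 99.2, 64 UMIs) and 169 CPM (155 to 184, 532 UMIs). The log2 ratios of 4T1m over 4T1p were 1.42 (1.29 to 1.55) and 1.12 (0.75 to 1.52), so that Nfkb1 was past 2-fold in both lineages. In granulocytic-like cells the ratio was 0.67 after thinning to 1000 UMIs, smaller in size than those of Socs3 (-0.83) and Tnf (-0.80).

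Past 2-fold, a term used here for genes with at least 50 UMIs over the groups compared, were 9.48% of 8829 genes in monocytic-like cells (7.52% higher and 1.96% lower in 4T1m) and 10.4% of 4488 genes in granulocytic-like cells (7.17% and 3.21%). Nfkb1 was higher in 4T1m in 9 of 9 clusters, with an interval above 0 in 8 and past 2-fold in 6, among them clusters 4 (log2 ratio 1.92), 2 (1.64) and 3 (1.59). Over the 28466 pairs of a gene and a cluster 8.23% were past 2-fold higher and 22% had an interval above 0. In cluster 5 the ratio was 0.22 (-1.13 to 1.92) and rested on under 50 UMIs. Lymphocytes also carried Nfkb1, at 388 CPM in the B cell-like and 657 CPM in the T cell-like cells of 4T1m. The annotated gene overlaps Gm43430 on the same strand, whose reads could not be told apart.

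**Figure D2:**
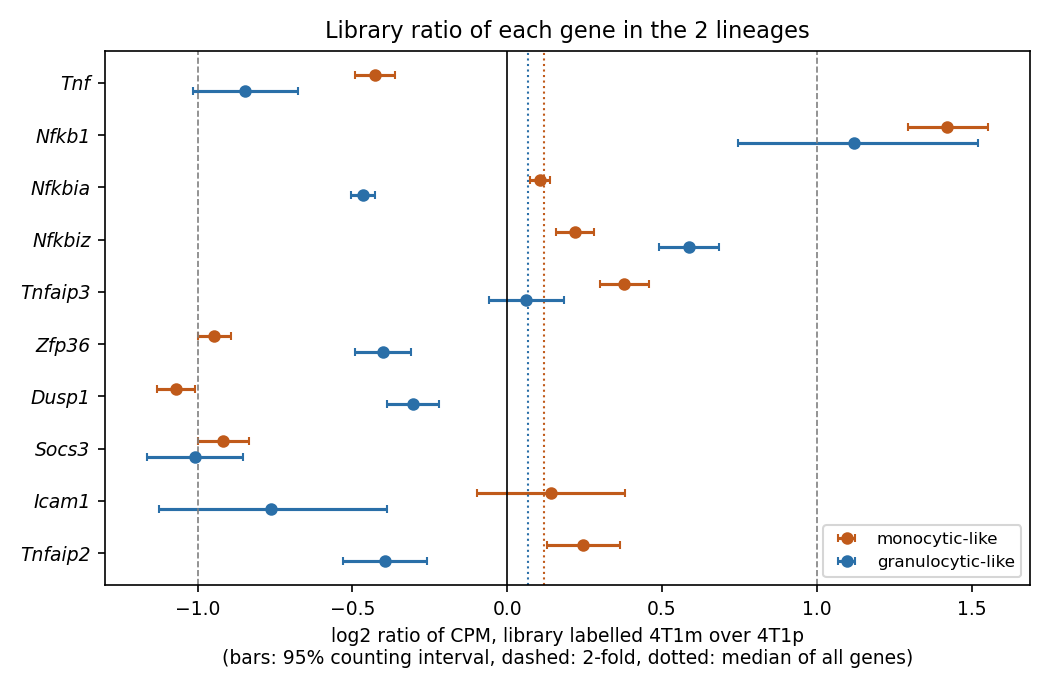
Log2 ratio of CPM of the library 4T1m over 4T1p (x axis) for the 10 genes (y axis) in monocytic-like (orange) and granulocytic-like (blue) cells, with bars for 95% counting intervals, dashed lines at 2-fold and dotted lines at the median of all genes. Nfkb1 lay past 2-fold higher in both lineages, and Tnf, Zfp36, Dusp1 and Socs3 lay below 0 in both, although Tnf in monocytic-like cells was at 0.21 as a mean over cells.

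Of the 3 inhibitors and regulators of NF-kB, Tnfaip3 was nominally higher in 4T1m in 9 of 9 clusters and Nfkbiz in 8, as Nfkb1 was in 9, whereas Nfkbia was higher in 3. The median of all genes was also above 0 in each of the 9 clusters, from 0.03 in cluster 4 to 0.26 in cluster 9. Nfkbia encodes IkBα, the inhibitor that NF-kB itself induces, and it had the most UMIs of the 10 genes. Its level was 2976 CPM (2924 to 3029) in 4T1p and 3203 CPM (3160 to 3246) in 4T1m in monocytic-like cells, a log2 ratio of 0.11 (0.07 to 0.14) where the median of all genes was 0.12. In granulocytic-like cells it was 8693 CPM (8492 to 8896) in 4T1p against 6295 CPM (6207 to 6383) in 4T1m, and the log2 ratio was -0.47 (-0.50 to -0.43), where the median of all genes was 0.07. The sign in monocytic-like cells turned to between -0.09 and -0.01 when ratios were centred on the median of all genes, when each cluster counted equally, or without the largest or the 2 shallowest clusters. The ratio of Nfkbia differed between clusters. Among monocytic-like clusters it was 0.64 in cluster 4, -0.18 in cluster 1 and -0.39 in cluster 6. Among granulocytic-like clusters it was -0.51 in cluster 3, -0.16 in cluster 2, -0.09 (-0.25 to 0.08) in cluster 5 and 0.12 in cluster 9. The ratio of all granulocytic-like cells ranged from -0.61 to -0.16 over 15 alternative settings. Across 9 clusters 2 had an interval above 0 and 5 below, against 22% and 11.7% of all pairs of a gene and a cluster.

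Nfkbiz, which encodes IkBζ, a nuclear protein that helps NF-kB to activate genes of the second wave, was higher in 4T1m. Its level was 771 CPM (744 to 798) and 898 CPM (875 to 921) in monocytic-like cells of 4T1p and 4T1m, a log2 ratio of 0.22 (0.16 to 0.28), where the median of all genes was 0.12. This ratio ranged from 0.06 without the 2 shallowest clusters to 0.89 as a mean over cells. In granulocytic-like cells it was 1216 CPM (1142 to 1294) and 1826 CPM (1779 to 1874), a ratio of 0.59 (0.49 to 0.68). All 4 granulocytic-like clusters had an interval above 0, from 0.65 to 1.02. The 5 monocytic-like clusters ran from -0.15 to 0.46, with an interval above 0 in 2 and below 0 in 1 (cluster 6, -0.26 to -0.04). Of all pairs of a gene and a cluster 22% had one above and 11.7% below.

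Tnfaip3 encodes A20, a ubiquitin-editing enzyme that limits signaling from the TNF receptor. It stood at 470 CPM (450 to 491) in 4T1p and 611 CPM (593 to 630) in 4T1m in monocytic-like cells, a log2 ratio of 0.38 (0.30 to 0.46), which ranged from 0.19 without the 2 shallowest clusters to 0.98 as a mean over cells. In granulocytic-like cells the levels of 856 CPM (794 to 921) and 893 CPM (860 to 927) overlapped, with a ratio of 0.06 (-0.06 to 0.18). Tnfaip3 was nominally higher in 4T1m in 9 of 9 clusters, with an interval above 0 in 5, of which cluster 8 (0.86), cluster 7 (0.72) and cluster 4 (0.63) had the higher values. Of all pairs of a gene and a cluster 22% had such an interval. In clusters 1 and 6 the ratios of 0.07 and 0.16 lay below the medians of all genes, 0.15 and 0.18. The T cell-like cells of 4T1m had it at 992 CPM and the B cell-like cells at 332 CPM. In granulocytic-like cells the sign turned to -0.01 when ratios were centred.

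The 3 feedback genes, which act on RNA or on other signaling pathways rather than on NF-kB itself, were lower in 4T1m. Zfp36 encodes tristetraprolin, which binds AU-rich RNAs such as that of Tnf and leads to their decay. It stood at 1451 CPM (1415 to 1488) in 4T1p and 753 CPM (733 to 774) in 4T1m in monocytic-like cells, and at 1673 CPM (1586 to 1763) and 1267 CPM (1228 to 1307) in granulocytic-like cells. The log2 ratios were -0.95 (-1.0 to -0.89) and -0.40 (-0.49 to -0.31). It was past 2-fold lower in 4 of 5 monocytic-like clusters (-1.30 to -0.50 over the 5) and in none of the 4 granulocytic-like clusters (-0.45 to 0.04). Of the 28466 pairs of a gene and a cluster 2.21% were past 2-fold lower.

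Dusp1 encodes a phosphatase that inactivates the kinases p38 and JNK. Its level was 1149 CPM (1117 to 1182) in 4T1p and 547 CPM (530 to 565) in 4T1m in monocytic-like cells, and 1913 CPM (1820 to 2010) and 1549 CPM (1506 to 1593) in granulocytic-like cells. The log2 ratios were -1.07 (-1.13 to -1.01), past 2-fold, and -0.30 (-0.39 to -0.22). Within monocytic-like clusters they ran from -1.72 in cluster 4 to -0.86 in cluster 7 and within granulocytic-like clusters from -0.35 to 0.17, the last in cluster 5 with an interval that spans 0. The Dusp1 locus overlaps AC122252.1 and AC122252.4 on the same strand.

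Socs3 encodes the suppressor of signaling by the receptors for IL-6 and G-CSF. In monocytic-like cells it stood at 618 CPM (595 to 642) in 4T1p and 327 CPM (314 to 341) in 4T1m, and in granulocytic-like cells at 630 CPM (577 to 687) and 313 CPM (294 to 334). The log2 ratios were -0.92 (-1.0 to -0.83) and -1.01 (-1.16 to -0.85), the latter past 2-fold. Unlike Zfp36 and Dusp1, Socs3 had an interval below 0 in 9 of 9 clusters, from -2.16 in cluster 4 to -0.54 in cluster 9. It was past 2-fold lower in 5, including the granulocytic-like clusters 2 (-1.30) and 3 (-1.24). Of all pairs of a gene and a cluster 11.7% had an interval below 0 and 2.21% were past 2-fold lower. In cells thinned to 1000 UMIs, a Socs3 UMI was found in 42.4% of granulocytic-like cells of 4T1p and 23.6% of those of 4T1m.

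The targets Icam1 and Tnfaip2 differed little between libraries in monocytic-like cells and were lower in granulocytic-like cells of 4T1m. Icam1, the ligand of β2 integrins on leukocytes, was the scarcest of the 10 genes in monocytic-like cells, at 54.7 CPM (47.9 to 62.3, 229 UMIs) in 4T1p and 60.3 CPM (54.5 to 66.5, 402 UMIs) in 4T1m, a log2 ratio of 0.14 whose interval of -0.10 to 0.38 spans 0. In granulocytic-like cells it was at 110 CPM (88.9 to 136, 91 UMIs) and 65.1 CPM (56.5 to 74.7, 205 UMIs), a log2 ratio of -0.76 (-1.12 to -0.39). It was nominally lower in 4T1m in all 4 granulocytic-like clusters, at -0.07 (-0.53 to 0.41) in cluster 3, where Icam1 was highest with 173 and 165 CPM, and at -0.59 (-1.45 to 0.35) in cluster 2. In clusters 5 (-1.50, -3.34 to 0.65) and 9 (-1.69, -2.71 to -0.64) the ratios rested on under 50 UMIs.

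Tnfaip2, a TNF-induced gene whose product shapes thin membrane bridges between cells, stood at 215 CPM (201 to 229) in 4T1p and 255 CPM (243 to 267) in 4T1m in monocytic-like cells, a log2 ratio of 0.25 (0.13 to 0.36), which ranged from 0.09 without the 2 shallowest clusters to 0.76 as a mean over cells. Granulocytic-like cells held 722 CPM (665 to 783) and 549 CPM (524 to 576), a ratio of -0.39 (-0.53 to -0.26). Within clusters, 1 of 9 had an interval above 0 (cluster 6, 0.25) and 1 below (cluster 2, -0.64), against 22% and 11.7% of all pairs of a gene and a cluster. In the granulocytic-like clusters 3 (-0.14), 5 (-0.18) and 9 (0.0003) the intervals span 0. Cluster 3, where Tnfaip2 was highest, held 110 of 251 granulocytic-like cells in 4T1p and 277 of 1022 in 4T1m. The part of this make-up in the lineage ratio was not tested.

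**Figure D3:**
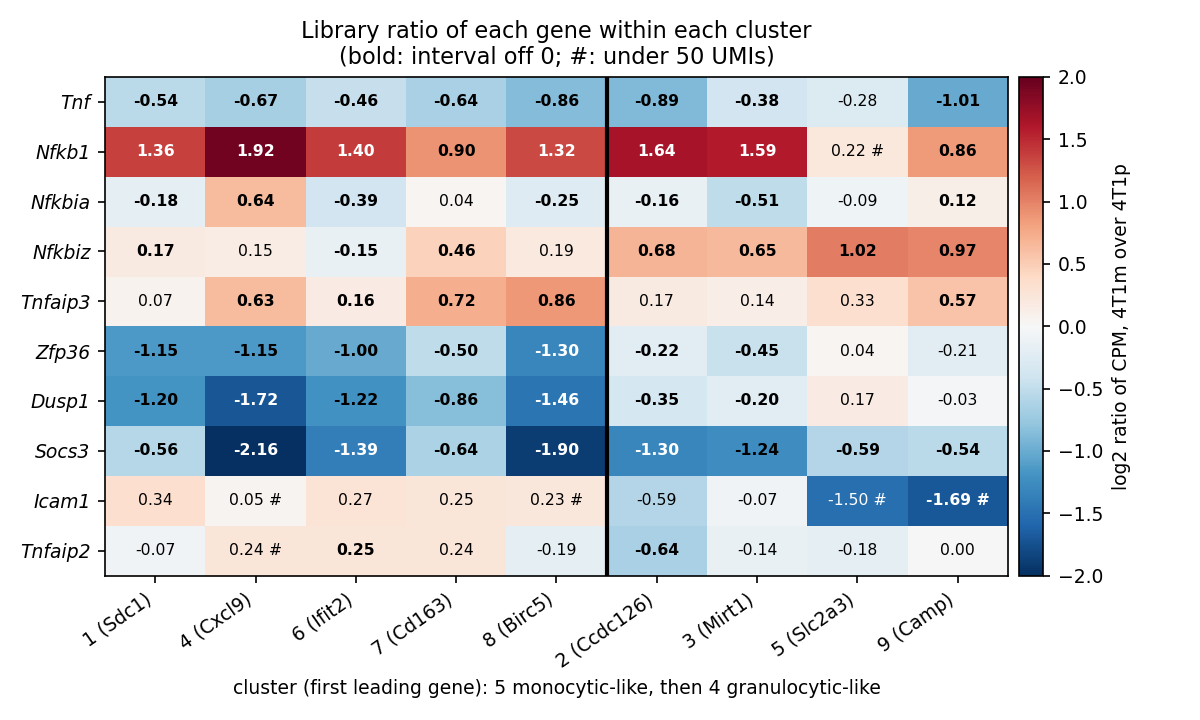
Log2 ratio of CPM of 4T1m over 4T1p within each of 9 clusters (columns, monocytic-like left and granulocytic-like right of the black line) for the 10 genes (rows), with the value in each cell, bold where the 95% counting interval does not include 0 and marked # below 50 UMIs. Tnf and Socs3 were below 0 and Nfkb1 and Tnfaip3 above 0 in all 9 clusters, whereas Zfp36 and Dusp1 were past 2-fold lower in 4 monocytic-like clusters each and in no granulocytic-like cluster. The median of all genes was above 0 in all 9 clusters, from 0.03 to 0.26.

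Counted together, 2 of the 10 genes were past 2-fold in monocytic-like cells (Nfkb1 higher, Dusp1 lower) and 2 in granulocytic-like cells (Nfkb1 higher, Socs3 lower). Of all genes 7.52% were past 2-fold higher and 1.96% lower in monocytic-like cells, and 7.17% and 3.21% in granulocytic-like cells. The median log2 ratio of the 10 genes was 0.12 in monocytic-like cells, as over all genes, and -0.40 in granulocytic-like cells against 0.07 over all genes. Intervals lay above 0 for 5 and below 0 for 4 of the 10 in monocytic-like cells, where 34% and 18.5% of all genes did, and for 2 and 7 in granulocytic-like cells, where 20.7% and 15.2% of all genes did. Dusp1 (-1.07) and Socs3 (-1.01) lay close to the threshold, and Zfp36 (-0.95) and Socs3 (-0.92) in monocytic-like cells fell just short of it. Among cells with a Ptprc UMI none of the 10 was past 2-fold in granulocytic-like cells, where Nfkb1 stood at 0.996 and Socs3 at -0.93.

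Compared between lineages, most of these genes took a larger share of the RNA of granulocytic-like cells. The median log2 ratio of granulocytic-like over monocytic-like cells was 0.70 for the 10 genes in 4T1p, where it was -0.99 for all genes, and 0.65 in 4T1m, where it was -1.19. Ratios on this scale compare shares of the RNA of a cell group and not molecules per cell. Past 2-fold higher were Tnfaip2 (1.75), Nfkbia (1.55) and Icam1 (1.01) in 4T1p and Dusp1 (1.5), Tnfaip2 (1.11) and Nfkbiz (1.02) in 4T1m, where 10.9% and 10.2% of all genes were. Past 2-fold lower in 4T1m were Nfkb1 (-1.19) and Tnf (-1.16), against 54.3% of all genes, and in 4T1p none of the 10 was, with Nfkb1 at -0.89 and Tnf at -0.74, against 49.8% of all genes.

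Relative to the median of all genes, Tnf and Nfkb1 were near the middle: centred on it, the log2 ratio of Tnf was 0.25 in 4T1p and 0.03 in 4T1m and that of Nfkb1 0.10 and -0.003. As a mean over cells Tnf was at 0.11 in 4T1p, so its order between lineages there depended on the weighting, whereas in 4T1m it was at -1.07. The log2 ratio of Socs3 had an interval that spans 0 in both libraries (0.03, -0.11 to 0.16, in 4T1p and -0.06, -0.17 to 0.05, in 4T1m), and stood at 0.42 and 0.47 after thinning.

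Within the granulocytic-like cells the genes followed the clusters. Nfkbia reached 10189 and 9147 CPM in cluster 2 and 12732 and 8969 CPM in cluster 3 of 4T1p and 4T1m, against 3830 and 3605 CPM in cluster 5 and 3303 and 3595 CPM in cluster 9, the cells with the granule genes Camp and Ltf. Tnfaip2 was likewise highest in cluster 3, at 1106 and 1002 CPM. Among monocytic-like clusters, Nfkbia ran from 803 CPM in cluster 4 to 4509 CPM in cluster 1 in 4T1p and from 905 CPM in cluster 8 to 3976 CPM in cluster 1 in 4T1m. Clusters 4 and 8 were the shallowest of the lineage, with medians between 1257 and 1579 UMIs per cell in the libraries.

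Over the 20 groups of a cluster in a library with at least 30 cells, which include the B cell-like cells of 4T1m, with Tnf at 6.26 CPM, and leave out the 26 cells of cluster 9 of 4T1p, the levels of Zfp36 and Dusp1 had a Pearson r of 0.95 and those of Nfkbia and Nfkbiz of 0.92 on a log2(CPM + 10) scale, as a description of groups that share libraries and depth. Over these groups of both libraries, whose Nfkb1 levels differed, Nfkb1 had r between -0.38 (Dusp1) and 0.19 (Tnfaip3) with the other genes. With the lymphocytes left aside, Nfkb1 was highest in cluster 6 in each library (173 CPM in 4T1p and 455 CPM in 4T1m), as was Tnf. In 4T1p all 9 pairs of neighbors in the order of Nfkb1 had overlapping intervals, and in 4T1m 7 of 9. The genes nearest to Tnf among 6406 were Ccl4 (0.93), Il1a (0.89), Smim3 (0.86), Cxcl1 (0.85) and Cdkn1a (0.84). Nearest to Nfkbia were Mcl1 (0.94), Ccrl2 (0.94), Tnfrsf1b (0.93), Cxcl2 (0.93) and Ptafr (0.93). Nearest to Icam1 were Gbp5 (0.81), Slfn8 (0.76), Nlrc5 (0.76), Gm20186 (0.73) and Tagap (0.71).

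Cells that held a Tnf UMI also held more RNA of several of the other 9 genes. All cells were thinned to 1000 UMIs, so that depth was equal, and were sorted by the Tnf UMIs left after thinning. Cells without one could therefore have held Tnf UMIs before. In monocytic-like cells of 4T1m 64.1% held one before thinning and 29.6% of the cells kept did after, and in those of 4T1p 44.6% and 30.5%. In monocytic-like cells of 4T1p, 141 cells with and 322 without a Tnf UMI, Nfkbia stood at 3532 and 1689 CPM, a log2 ratio of 1.06 (0.89 to 1.24), Nfkbiz at 986 and 366 CPM (1.43, 1.06 to 1.79) and Tnfaip2 at 220 and 109 CPM (1.02, 0.27 to 1.76). These 3 were past 2-fold higher, against 3.16% of 1235 genes. In 4T1m, 189 cells with and 449 without, none was past 2-fold, against 1.62% of 1917 genes higher, with Nfkbiz at 0.92 (0.67 to 1.17) and Nfkbia at 0.42 (0.28 to 0.56). The 3 calls in 4T1p were lost among cells with a Ptprc UMI.

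In granulocytic-like cells of 4T1m, 115 cells with and 822 without a Tnf UMI, Icam1 stood at 174 and 49.9 CPM (log2 ratio 1.80, 0.95 to 2.61, from 20 and 41 UMIs), Tnfaip3 at 1922 and 863 CPM (1.16, 0.93 to 1.38) and Nfkb1 at 270 and 129 CPM (1.06, 0.44 to 1.65). These 3 were past 2-fold higher, against 3.3% of 2003 genes. In 4T1p, 56 and 173 cells, none of the 7 of these genes with 50 UMIs was past 2-fold, against 1.55% of 581 genes higher. Tnfaip3 had a ratio of 0.78 (0.35 to 1.21) there and Dusp1 one of -0.77 (-1.14 to -0.41). Below 50 UMIs there, Icam1 stood at 1.87 (0.59 to 3.17, from 13 and 11 UMIs) and Nfkb1 at -1.62 (-4.77 to 0.43, from 2 and 19 UMIs). Since Tnf itself differed between clusters, the comparison was also made inside 9 groups of a cluster in a library with at least 20 cells of each kind. Nfkbia was higher with Tnf in 8 of 9 groups, with an interval above 0 in 6 and a log2 ratio of -0.41 to 0.79, and Nfkbiz in 8 of 9 with an interval above 0 in 5. Icam1 was nominally higher in 8 groups, with an interval above 0 in 1 (cluster 3 of 4T1m, 14 and 23 UMIs), and Tnfaip2 in 7, with none. Tnfaip3 and Zfp36 were each higher in 5 and lower in 4, with an interval above 0 in 2. Nfkb1 was higher in 5 and lower in 4, with none. Dusp1 and Socs3 each had intervals below 0 in 2 groups, and Socs3 had 1 above. The 2 of Socs3 below 0 rested on 5 UMIs with and 20 without Tnf in cluster 7 of 4T1p and on 6 and 18 in cluster 6 of 4T1m. Of 4036 pairs of a gene and a group with at least 50 UMIs, 7.58% had an interval above 0 and 8.55% below. No minimum of UMIs was set for the counts of the genes named here.

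**Figure D4:**
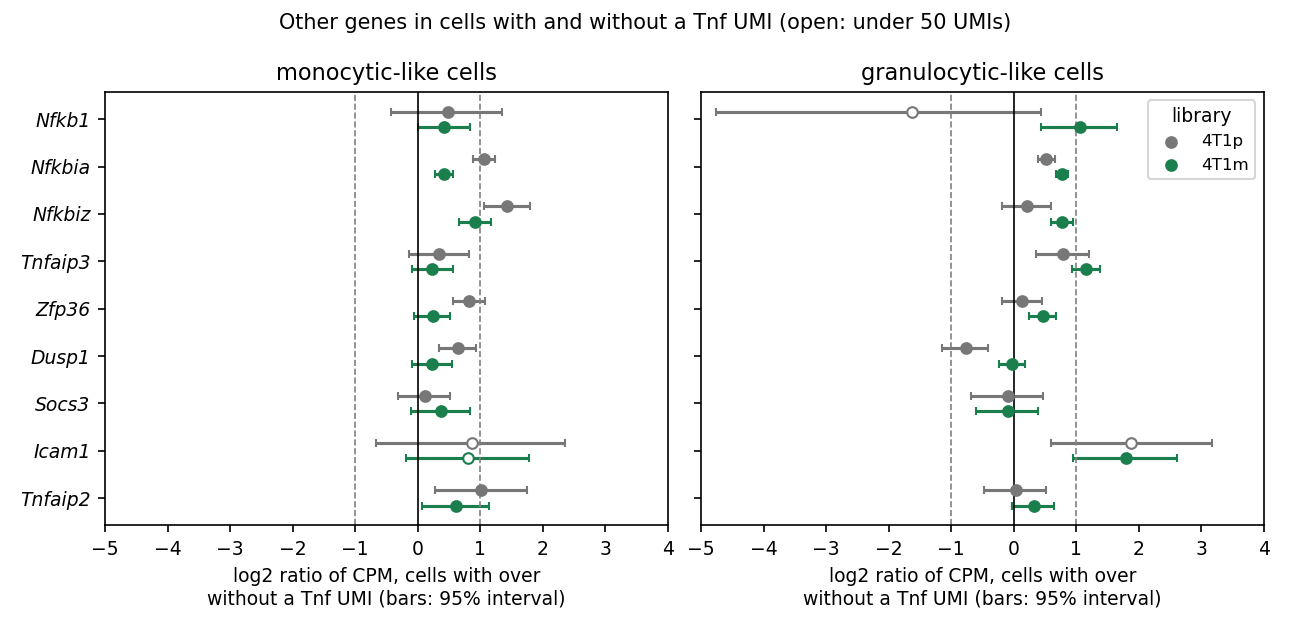
Log2 ratio of CPM of cells with over cells without a Tnf UMI (x axis), after thinning to 1000 UMIs, for the other 9 genes in monocytic-like (left) and granulocytic-like cells (right) of 4T1p (grey) and 4T1m (green), with 95% counting intervals, dashed lines at 2-fold and open points below 50 UMIs. Nfkbia lay above 0 in all 4 groups, from 0.42 to 1.06, whereas Socs3 had an interval that spans 0 in each.

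The wider pathway was read in 69 further genes. In monocytic-like cells 67 of them reached 50 UMIs, with a median log2 ratio of 4T1m over 4T1p of 0.37 against 0.12 over all genes, with 10 past 2-fold higher and 1 lower, where 7.52% and 1.96% of all genes were. The 10 were Ptgs2, Plek, Cflar, Clec4e, Rel, Tnip3, Dusp4, Dusp16, Traf6 and Csf1. Ptgs2, the gene of the prostaglandin-forming enzyme COX-2, stood at 416 CPM in 4T1p and 1714 CPM in 4T1m (log2 ratio 2.04, 1.97 to 2.12). Its ratio within the 5 monocytic-like clusters ran from -0.23 to 1.74, below that of the whole lineage in each. Plek, a substrate of protein kinase C, stood at 464 and 1310 CPM (1.5, 1.43 to 1.57). Its interval was above 0 in 9 of 9 clusters, against 22% of all pairs of a gene and a cluster. Rel, which encodes the NF-kB subunit c-Rel, stood at 160 and 377 CPM (1.24, 1.12 to 1.36), whereas Dusp2, a nuclear phosphatase of MAP kinases, stood at 96.5 and 36.2 CPM (-1.42, -1.65 to -1.18).

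Of the other genes past 2-fold in these cells, Clec4e, a receptor for mycobacterial glycolipid and dead cells, had a log2 ratio of 1.17, Cflar, an inhibitor of caspase-8, one of 1.02, and Tnip3, a binding partner of A20, one of 1.02. Dusp4, a further MAP kinase phosphatase and a leading gene of cluster 1, had 1.60. Within the 5 monocytic-like clusters, Ptgs2 and Plek were past 2-fold higher in 4, Rel in 3 and Dusp4 in 2. Clec4e, Cflar, Tnip3, Dusp16, Traf6 and Csf1 were each past 2-fold higher in 1, and Clec4e stood at -0.70 in another. Over all pairs of a gene and a cluster 8.23% were past 2-fold higher. By group, all 7 deubiquitinases and their binding proteins had an interval above 0 (median 0.80). Of 15 adaptors and kinases 9 had one above and 1 below 0 (median 0.45). Of 8 Rel factors and inhibitors 5 and 1 did (median 0.32), and of 14 targets 8 and 2 (median 0.35). Among 8 measured receptors and ligands 3 had an interval above and 2 below 0, and among 15 feedback genes 7 and 4. Over all genes 34% had an interval above 0 and 18.5% below in these cells. Of the 7 deubiquitinases and binding proteins, only Tax1bp1 had an interval above 0 in all 5 monocytic-like clusters. Tnip1 and Tnip3 had one in 3, Otulin and Itch in 2, and Cyld and Tnip2 in 1. Of all pairs of a gene and a cluster 22% had one. The direction of Nfkb1 was thus shared by Rel in this list and that of Dusp1 by Dusp2, while Dusp4 and Dusp16 lay in the other direction.

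In granulocytic-like cells 54 of the 69 genes reached 50 UMIs, with a median of 0.10 against 0.07 over all genes, and 3 were past 2-fold higher and 3 lower, where 7.17% and 3.21% of all genes were. The 12 measured targets had a median of -0.37, with 2 intervals above and 6 below 0, and the 5 measured receptors and ligands one of -0.23, with 2 and 2. The median was 0.48 for 6 deubiquitinases and binders (2 and 0), 0.17 for 10 adaptors and kinases (2 and 0), 0.17 for 8 Rel factors and inhibitors (2 and 1) and 0.07 for 13 feedback genes (5 and 4). Over all genes 20.7% had an interval above 0 and 15.2% below. Past 2-fold higher in 4T1m were the deubiquitinase gene Cyld (21.9 and 69.9 CPM in 4T1p and 4T1m, log2 ratio 1.68, 0.98 to 2.46), Plek (981 and 2192 CPM, 1.16) and Rel (166 and 339 CPM, 1.03). Past 2-fold lower were Socs1 (91.0 and 21.6 CPM, -2.07, -2.57 to -1.58), an inhibitor of cytokine signaling related to Socs3, Dusp2 (117 and 46.1 CPM, -1.34) and Bcl2a1b (376 and 168 CPM, -1.17), a survival gene with near-identical copies among which counting could split reads. Plek and Rel were thus past 2-fold higher in both lineages, as Nfkb1 was.

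**Figure D5:**
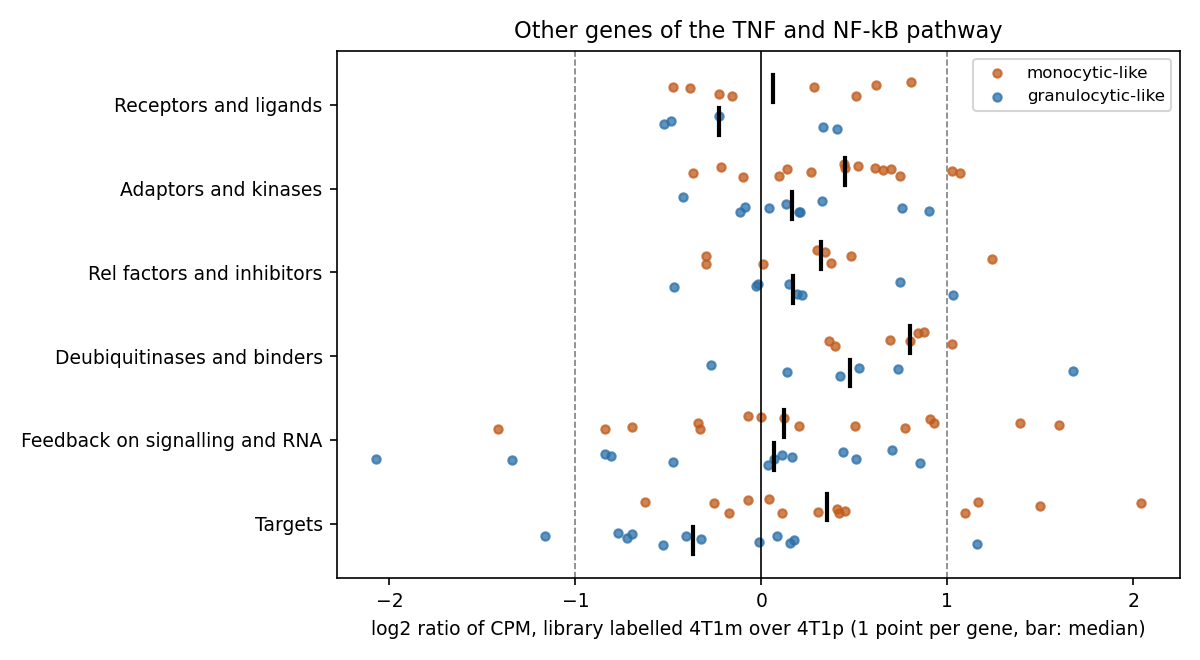
Log2 ratio of CPM of 4T1m over 4T1p (x axis) for the genes of 6 groups of the TNF and NF-kB pathway other than the 10 described (y axis), with 1 point per gene of at least 50 UMIs in monocytic-like (orange) and granulocytic-like (blue) cells, black bars at the median and dashed lines at 2-fold. All 7 deubiquitinases and binders lay above 0 in monocytic-like cells, with a median of 0.80.

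Genes that tissue digestion is known to induce were lower in monocytic-like cells of 4T1m, as were the early-response genes Zfp36 and Dusp1. Of the 10 genes described here, 4 had an interval below 0 in these cells and 5 above, against 18.5% and 34% of all genes. Nfkbia (0.11), Nfkbiz (0.22) and Tnfaip3 (0.38) were among the 5. The tumors had been digested with enzymes at body temperature before selection. The 10 genes of a digestion list summed to 11657 CPM in monocytic-like cells of 4T1p and 6521 CPM in 4T1m, all 10 with an interval below 0, a median log2 ratio of -0.86 and 4 past 2-fold lower (Btg2, Ier2, Fos and Jun), where 18.5% and 1.96% of all genes were below 0 by interval and past 2-fold lower. Fos stood at 1795 and 800 CPM (-1.17), Egr1 at 1726 and 925 CPM (-0.90) and Atf3 at 978 and 797 CPM (-0.29). In granulocytic-like cells the sums were 9660 and 7129 CPM, with a median of -0.25, none past 2-fold and intervals below 0 for 6 and above 0 for 3 genes, as for 15.2% and 20.7% of all genes. There Fos stood at 592 and 486 CPM (-0.29), Egr1 at 1056 and 998 CPM (-0.08) and Atf3 at 529 and 605 CPM (0.19).

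The summed digestion list was lower in 4T1m in 8 of 9 clusters, while the median log2 ratio of its genes was below 0 in 7 and stood at 0.22 in clusters 2 and 9. In cluster 9, one of the 8, 5 genes had an interval above 0 and 4 below, where 24.6% and 9.86% of all genes did. Past 2-fold higher there were 3 (Fosb, Hspa1a and Hspa1b) and lower 1 (Ier2), against 17% and 2.81% of all genes. The 3 higher genes had 5, 3 and 0 UMIs in 4T1p, so that Hspa1b was called through the floor. In cluster 6 the sum stood at 16071 CPM in 4T1p and 7308 in 4T1m, in cluster 3 at 12457 and 7012, and in cluster 2 at 9465 and 9484. In cluster 2, 4 genes of the list had an interval above 0 and 3 below, where 16.9% and 14.2% of all genes did. Hspa1a (200 and 983 CPM) and Hspa1b (241 and 510 CPM) were past 2-fold higher there, against 9.31% of all genes. Junb (-0.66), Btg2 (-0.54) and Ier2 (-0.42) were the 3 with an interval below 0. Cells with a Tnf UMI had more of the digestion genes in monocytic-like cells of 4T1p, with a median log2 ratio of 0.62 over cells without, where the median of all genes was -0.08. Of the 10 genes 0 were past 2-fold higher there, against 3.16% of all genes. The medians of the list were 0.03 in monocytic-like cells of 4T1m and 0.17 and -0.19 in granulocytic-like cells of 4T1p and 4T1m. These ratios were taken over whole lineages and not within clusters. In 4T1p the thinned share of cells with a Tnf UMI was 47.8% in cluster 1 and 10.8% in cluster 4. The part of digestion in the lower levels of Zfp36, Dusp1, Socs3 and Tnf in 4T1m, and in the ratios between cells with and without Tnf, was not tested.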

How the data were processed

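GR-1+ cells of 4T1p and 4T1m tumors, 1 library each, were sequenced with the 10x 3′ v3 chemistry, and the authors deposited filtered matrices of raw UMI counts per gene and barcode, made with Cell Ranger on mm10 (the matrix header gives version 3.1.0, the study's methods a later one, so the version is unsettled); there were no replicates, and 0 columns belonged to other samples. The 10 genes and all gene lists were chosen with earlier results of these data known. From the deposited counts, barcodes with 250 to 5000 genes, at most 27000 UMIs and at most 12.5% mitochondrial UMIs were kept, normalised with sctransform 0.4.2 and clustered with Seurat 5.3.0 (R 4.3.3; 3000 variable genes less 40 of the described lists, 11 components, resolution 0.8). Clusters were named from fixed markers. No barcode was removed as a doublet; removing those with the highest Scrublet scores (scanpy 1.11.5; 13 in 4T1p and 44 in 4T1m) was an alternative. Counts were summed per cell group and divided by its total (CPM), with exact 95% Poisson intervals for levels and exact binomial ones for ratios and shares (scipy 1.17.1). These intervals cover counting error only, not the spread between cells or mice. A gene counted as past the threshold at 2-fold with at least 50 UMIs in both groups together, and a count of 0 took a floor of 3 in medians and shares over all genes. Of the further pathway genes, those past 2-fold were named and up to 8 with the most UMIs given with values. Thinned cells were drawn to 1000 UMIs. In simulated Poisson counts, the intervals held the true ratio for 95.7% of 8826 genes at the totals of monocytic-like cells. At those of granulocytic-like cells they held it for 96.2% of 4451 genes. Only the summed counts of a cell group were simulated, without spread between cells, so this checked the calculation alone. Promoters were read from RefSeq.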

Additional observations from a re-analysis of the deposited data

Results flagged for a closer look

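Tnf RNA was also present in barcodes that the filters left out. Barcodes above the mitochondrial limit held it at 440 CPM in 4T1p (443 barcodes, 531 UMIs) and at 232 CPM in 4T1m (560 barcodes, 402 UMIs). Barcodes above the limit of UMIs or genes held it at 805 CPM in 4T1p (57 barcodes, 1702 UMIs) and 521 CPM in 4T1m (58 barcodes, 1076 UMIs). In both kinds the library 4T1p was the higher, as within the clusters, but these barcodes were not split by lineage, whose shares can differ between the libraries. Tnfaip2 and Nfkbia had library ratios of opposite sign in the lineages, but the sign of Nfkbia in monocytic-like cells changed in 4 of 16 settings. Within clusters, Tnfaip2 had an interval above 0 in 1 of 5 monocytic-like clusters and below 0 in 1 of 4 granulocytic-like clusters. The log2 ratio of 4T1m over 4T1p in monocytic-like cells exceeded that in granulocytic-like cells by 0.64 for Tnfaip2 and by 0.57 for Nfkbia, and the difference was not tested, since each lineage has 1 library per tumor type.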

How the results depend on the processing

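No paired analysis was possible because each tumor type has 1 library and no result comes from a test between samples. Across 20 alternative settings, 52 of the 75 counts of genes past 2-fold lay within 1.5 times the values of the report. In monocytic-like cells the count for 4T1m over 4T1p was 2, and it became 1 at 5% mitochondrial UMIs, with the mean of the CPM of cells and with thinning, and 4 when centred on the median of all genes, as the mean over clusters and at 1.5-fold. In granulocytic-like cells it was 2, and became 0 with Ptprc UMIs required and with thinning, 5 at 1.5-fold, and 1 at 5% mitochondrial UMIs, at 500 genes, with log-normalized clustering, with the mean of the CPM of cells, without the largest cluster and as the mean over clusters. Between lineages the count in 4T1p was 3, and became 6 with the mean of the CPM of cells, 5 with thinning and 8 both when centred and at 1.5-fold. In 4T1m it was 5, and 8 when centred, where the log2 ratio of Tnf turned from -1.16 to 0.0259. For cells with a Tnf UMI in the monocytic-like cells of 4T1p the count was 3, and became 7 without thinning and 0 with Ptprc UMIs required, and in 4T1m it was 0 and became 1 without thinning. The causes were not tested. Nfkb1 (1.26 to 1.86), Zfp36 (-1.07 to -0.47), Dusp1 (-1.29 to -0.53) and Socs3 (-1.33 to -0.61) kept their direction in monocytic-like cells under the 16 settings run for single genes. The settings that counted the unnamed cluster as monocytic-like, or left out the 2 shallowest monocytic-like clusters, were chosen after seeing the data. Depth limits Icam1 and Nfkb1 most, with 91 and 64 UMIs in granulocytic-like cells of 4T1p.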

Other observations

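The unnamed cluster of shallow barcodes carried the same genes at lower levels than either lineage as a whole, with Tnf at 188 CPM in 4T1p and 104 CPM in 4T1m. It was not below every cluster: in 4T1p Nfkbia stood at 1373 CPM there, at 1079 CPM in cluster 8 and at 803 CPM in cluster 4. Nfkb1 stood there at 69.2 and 117 CPM, a log2 ratio of 0.76 (0.12 to 1.43), and Socs3 at 342 and 159 CPM, a log2 ratio of -1.10 (-1.50 to -0.71). Dusp1 had a log2 ratio of -1.12 (-1.48 to -0.77) and Zfp36 one of -0.70 (-0.95 to -0.44) in these barcodes. In lymphocytes of 4T1m the ligand was scarce, and Nfkbia and Socs3 were higher in T cell-like than in B cell-like cells. T cell-like cells held Nfkbia, the NF-kB inhibitor, at 2101 CPM and Socs3, the suppressor of cytokine signaling, at 493 CPM, and B cell-like cells held them at 526 and 125 CPM.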
